A study of Mus musculus with 8 samples.

Results

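Cyclin-dependent kinase (CDK) inhibitors are small proteins that hold the cell cycle back, and the mouse has 7 of them in 2 families, Cdkn1a, Cdkn1b and Cdkn1c (Cip/Kip) and Cdkn2a, Cdkn2b, Cdkn2c and Cdkn2d (Ink4). The 7 genes were taken by symbol from a deposited expression table of 54134 mouse genes, and 7 of 7 were found and passed the filter on low values (1 TPM or more in 2 or more libraries, where TPM counts transcripts after division by length and scaling to a fixed total per library), which 14985 genes passed in all. The choice rests on family membership by name.

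The study asked how a glucocorticoid acts on a senescence phenotype of bone marrow adipocytes when the nuclear receptor PPARγ is inhibited. Wild-type mouse bone marrow stem cells were differentiated for 14 days with an adipogenic kit, and the resulting cells are labelled as adipocytes of the BMAd line. The 2 Control libraries had differentiation only. The 3 GC libraries came from cells given dexamethasone (DEX), a synthetic glucocorticoid, at 1e-06 M for 24 hours, and the 3 GC+GW9662 libraries from cells given DEX at that dose and time with GW9662, a PPARγ inhibitor whose dose was not given. There was no group with GW9662 alone. Whether replicates were grown as separate cultures is not stated, and p-values then measure only how these libraries spread, which may be technical. RNA was sequenced as Smart-Seq 2 libraries, which do not mark the strand, so reads of a gene and of an antisense partner could not be told apart.

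Several facts about the libraries bear on the values. The estimated depth was 25241773 and 26542262 reads in Control, 17697027 to 25638040 reads in GC and 17450618 to 18485076 reads in GC+GW9662. Fkbp5 and Tsc22d3, genes that glucocorticoids are known to induce, had their top values under the Control label: Fkbp5 averaged 446 TPM there, 58.5 TPM in GC and 95.4 TPM in GC+GW9662, and Tsc22d3 averaged 558, 59.6 and 429 TPM. Both fell in GC against Control (log2 difference -3.00, adjusted p = 0.000142, and -3.21, adjusted p = 8.7e-07), which goes against the labels, so every direction below is between libraries as labelled. Of the defining adipocyte markers, 9 of 10 were above the filter and Lep was at 0 in all 8 libraries, and the 10 markers summed to 1416 to 1432 TPM in Control, 178 to 250.4 TPM in GC and 1222 to 1366 TPM in GC+GW9662. The 12 macrophage markers summed to far more, 31420 to 32340, 9938 to 10430 and 24850 to 28890 TPM. GC replicate 1 stood apart from the other GC libraries, with a chi-square per degree of freedom of 173.8 and 95.1 against them, where GC replicates 2 and 3 gave 19.9 and the Control pair gave 4.7.

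The Cip/Kip proteins p21 (Cdkn1a), p27 (Cdkn1b) and p57 (Cdkn1c) bind cyclin-CDK complexes of several kinds and are best known for inhibiting CDK2. The Ink4 proteins p16 (Cdkn2a), p15 (Cdkn2b), p18 (Cdkn2c) and p19 (Cdkn2d) bind CDK4 and CDK6 and keep them from their D-type cyclins, so that the retinoblastoma protein stays active and E2F target genes stay off. Cdkn2a also encodes Arf from another first exon, a protein that binds Mdm2 and so stabilises p53, while Cdkn1a is a textbook target gene of p53. High p16 and p21 are among the most used marks of senescent cells, and p21, p27 and p18 are also known from the cell-cycle exit that accompanies adipocyte differentiation.

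In GRCm38 coordinates, Cdkn1a lies on chromosome 17 (chr17:29090979-29100722, plus strand), Cdkn1b on chromosome 6 (chr6:134920401-134925513, plus strand) and Cdkn1c on chromosome 7 (chr7:143458339-143461050, minus strand). Cdkn2a (chr4:89274471-89294653) and Cdkn2b (chr4:89306289-89311032) are neighbours on the minus strand of chromosome 4 with 11635 bases between them. Cdkn2c is on the same chromosome (chr4:109660876-109667189, minus strand) and Cdkn2d on chromosome 9 (chr9:21288410-21291407, minus strand). The table gives 1 value per gene. For Cdkn2a that value pools p16 and Arf, whose starts in RefSeq are 12427 bases apart. The length behind its TPM, 895 bases, is that of the Arf transcript annotated in GENCODE M21.

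The promoters of the 3 genes that carried most of the family's RNA are shown because their levels moved apart between the groups. Each is the 250 bases before an annotated start (RefSeq, GRCm38.p6), written 5′ to 3′ on the gene's strand, with capitals marking matches on either strand to the motifs searched. RefSeq starts can lie inside the gene spans given above. The Arf window runs into the span of Cdkn2a. The windows searched for Cdkn2c lie wholly, and that of Cdkn2d mostly, inside the spans of those genes. For Cdkn2a both starts are given, since the pooled value cannot say which of them was in use. Cdkn1a also has 2 starts, 2790 bases apart, and its value cannot tell them apart either. Only its first start is printed, and the matches of both are given below. The length behind the Cdkn1a TPM, 1910 bases, equals no transcript of GENCODE M21. It is nearest to one of 1913 bases that begins at the second start, while the coding transcript at the first start has 922 bases. That length does not say which start was in use.
Cdkn1a, first start, chr17:29090729-29090978, plus strand: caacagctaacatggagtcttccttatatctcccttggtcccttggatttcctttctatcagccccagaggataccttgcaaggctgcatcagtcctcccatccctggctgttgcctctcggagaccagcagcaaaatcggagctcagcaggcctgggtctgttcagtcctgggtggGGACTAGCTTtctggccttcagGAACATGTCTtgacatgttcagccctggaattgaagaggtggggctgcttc
Cdkn2a, Arf start, chr4:89294620-89294869, minus strand: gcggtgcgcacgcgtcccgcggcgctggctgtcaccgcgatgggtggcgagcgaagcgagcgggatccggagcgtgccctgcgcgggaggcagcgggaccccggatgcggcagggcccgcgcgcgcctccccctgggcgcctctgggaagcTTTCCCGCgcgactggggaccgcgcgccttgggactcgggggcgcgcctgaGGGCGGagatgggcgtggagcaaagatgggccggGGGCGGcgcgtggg
Cdkn2a, p16 start, chr4:89282193-89282442, minus strand: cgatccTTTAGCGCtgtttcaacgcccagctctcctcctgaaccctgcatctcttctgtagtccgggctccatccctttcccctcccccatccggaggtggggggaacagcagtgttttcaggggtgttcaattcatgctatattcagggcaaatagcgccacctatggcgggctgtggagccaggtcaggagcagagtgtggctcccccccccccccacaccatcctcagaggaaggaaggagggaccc
Cdkn2b, chr4:89311033-89311282, minus strand: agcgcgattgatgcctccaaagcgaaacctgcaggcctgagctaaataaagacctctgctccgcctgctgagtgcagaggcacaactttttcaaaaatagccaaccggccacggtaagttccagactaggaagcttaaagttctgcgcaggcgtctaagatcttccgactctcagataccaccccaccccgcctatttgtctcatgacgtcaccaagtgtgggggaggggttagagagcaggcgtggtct

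In the window of the first Cdkn1a start the capitals are 2 matches to the p53 half-site motif, at -73 to -64 and -51 to -42 from the start. This motif was found in 7.13% of the 32841 promoter windows of the same length. The Arf window held an E2F site (TTTNNCGC, 4.28% of windows) at -99 to -92 and 2 GC boxes (GGGCGG, 32.7%) at -48 to -43 and -14 to -9. The p16 window held 1 E2F site, at -244 to -237, and no GC box. The Cdkn2b window held no match to any of the 8 motifs searched, which also included CCAAT (33.9% of windows), the TATA box TATAAA (12.4%) and the FOXO site GTAAACA (3.17%). No window of the 9 starts found for 6 of the 7 genes held the letters of the glucocorticoid response element (GNACA and TGTNC with 3 bases between, 0.387% of windows) or of the PPAR response element (2 copies of AGGTCA with 1 base between, 0.0335%). Among the other starts, those of Cdkn1b and Cdkn2d and the first start of Cdkn2c held 1 to 3 GC boxes each. The second start of Cdkn2c held no match. Cdkn2d also held 1 p53 half-site, at -102 to -93, and 1 CCAAT box, and Cdkn1b held 2 CCAAT boxes. The second start of Cdkn1a held 2 GC boxes and no p53 half-site. Overlapping matches run together in the capitals, and a match describes letters only.

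Cdkn1a, encoding p21, was the most abundant of the 7 by TPM, a scale per transcript length, in every Control and GC library. Its level was 710 and 685 TPM in the Control libraries, 1420, 1641 and 1554 TPM in GC, and 606, 513 and 600 TPM in GC+GW9662. All 3 GC libraries lay above all others, and all 3 GC+GW9662 libraries lay below both Control libraries. The group means were 697 ± 17.9 TPM (SD, n = 2), 1538 ± 112 TPM (n = 3) and 573 ± 51.9 TPM (n = 3). These levels rest on 10715 to 37965 reads per library, the deepest coverage of any of the 7 genes.

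Cdkn1b, encoding p27, was a low-level gene with little spread between groups. It measured 23.6 and 20.9 TPM in Control, 15.0, 18.0 and 15.8 TPM in GC and 21.7, 14.6 and 18.6 TPM in GC+GW9662. The GC libraries lay below Control, and the GC+GW9662 libraries spanned almost the whole range of the other groups.

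Cdkn1c encodes p57 and is expressed from the maternal allele of an imprinted cluster. Its level was 9.53 and 8.75 TPM in Control, 37.9, 104 and 78.8 TPM in GC, and 3.31, 2.46 and 4.04 TPM in GC+GW9662. The 3 groups did not overlap, with GC on top, Control between and GC+GW9662 lowest. The GC mean was 73.7 ± 33.5 TPM (SD, n = 3), with GC replicate 1 well below both others. The GC+GW9662 values rest on only 51 to 85 reads per library, against 719 to 2402 reads in GC.

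Cdkn2a ran the other way. Its level was 429 and 462 TPM in Control, 49.0, 29.7 and 41.2 TPM in GC, and 681, 600 and 651 TPM in GC+GW9662. The groups did not overlap, and the order was GC lowest, Control in the middle and GC+GW9662 highest. Means were 445 ± 23.3 TPM (SD, n = 2), 40.0 ± 9.71 TPM (n = 3) and 644 ± 41.0 TPM (n = 3).

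Cdkn2b, encoding p15, a known target of TGF-β signalling, was low in GC like its neighbour. It measured 388 and 379 TPM in Control, 56.8, 44.9 and 49.1 TPM in GC, and 374, 342 and 390.2 TPM in GC+GW9662. The GC libraries lay far below the rest, while Control and GC+GW9662 overlapped. The ratio of Cdkn2a to Cdkn2b TPM was 1.11 and 1.22 in Control, 0.662 to 0.863 in GC and 1.67 to 1.82 in GC+GW9662, so the ratio differed between the groups without overlap. No test was run on that ratio.

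The other Ink4 genes were low. Cdkn2c, encoding p18, measured 14.7 and 16.5 TPM in Control, 13.9, 12.4 and 13.0 TPM in GC, and 17.4, 23.3 and 22.9 TPM in GC+GW9662. Its GC libraries were the lowest and its GC+GW9662 libraries the highest. Cdkn2d, encoding the Ink4 protein p19, measured 18.6 and 23.9 TPM in Control, 43.2, 31.6 and 38.6 TPM in GC, and 40.8, 49.5 and 40.6 TPM in GC+GW9662. Control was lowest here, and GC and GC+GW9662 overlapped.

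**Figure D1:**
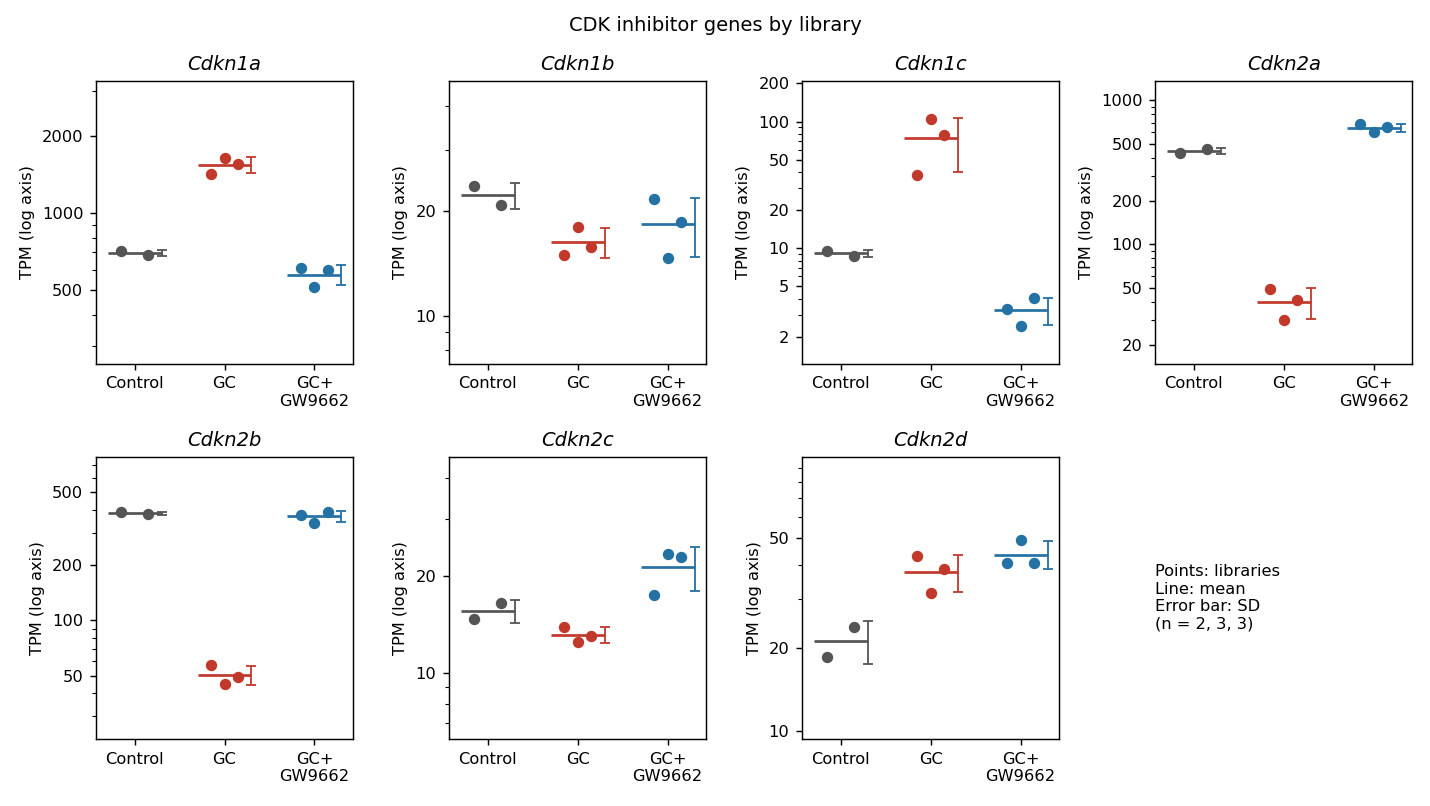
Level of each CDK inhibitor gene in TPM (log axis, a separate range per gene) in the 2 Control, 3 GC and 3 GC+GW9662 libraries, with points for libraries, lines for means and bars for the SD. Cdkn1a and Cdkn1c are highest in GC, Cdkn2a and Cdkn2b are lowest there, at 29.7 to 56.8 TPM, and Cdkn2d is lowest in Control.

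As deposited, inhibitor RNA summed over the 7 genes lay between 1545 and 1882 TPM in the 8 libraries, while its make-up differed. Scaling factors by the median ratio of genes were 1.42 and 1.376 in Control and 0.809 to 1.072 in the other libraries. The likeness of the sums thus depends on the deposited scale. The summed level was 1593 and 1596 TPM in Control, 1636, 1882 and 1791 TPM in GC, and 1745, 1545 and 1727 TPM in GC+GW9662. The Cip/Kip sum was 714 to 743 TPM in Control, 1473 to 1764 TPM in GC and 531 to 631 TPM in GC+GW9662. The Ink4 sum was 850 to 881, 119 to 163 and 1014 to 1113 TPM in the same order. The family sums of GC thus lay outside those of the other groups in opposite directions.

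Cdkn1a made up 44.6% and 42.9% of the summed TPM in Control, 86.8 to 87.2% in GC and 33.2 to 34.8% in GC+GW9662. Cdkn2a made up 26.9% and 28.9%, then 1.58 to 3%, then 37.7 to 39.0%. Cdkn2b accounted for 23.8 to 24.4%, 2.38 to 3.47% and 21.4 to 22.6%. A ratio of TPM within a library does not depend on 1 scaling factor per library, but a trend with transcript length can move it. Cdkn1a exceeded Cdkn2a 1.66-fold and 1.48-fold in Control and 29.0 to 55.2-fold in GC. In GC+GW9662 Cdkn1a was below Cdkn2a, at 0.856 to 0.922 times the Cdkn2a level. Between GC+GW9662 and Control, genes near the length of Cdkn2a had a median log2 difference of 0.50, and those near Cdkn1a -0.16. In GC against Control these medians were 0.08 and -0.28. The part of length in the ratio was not tested.

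**Figure D2:**
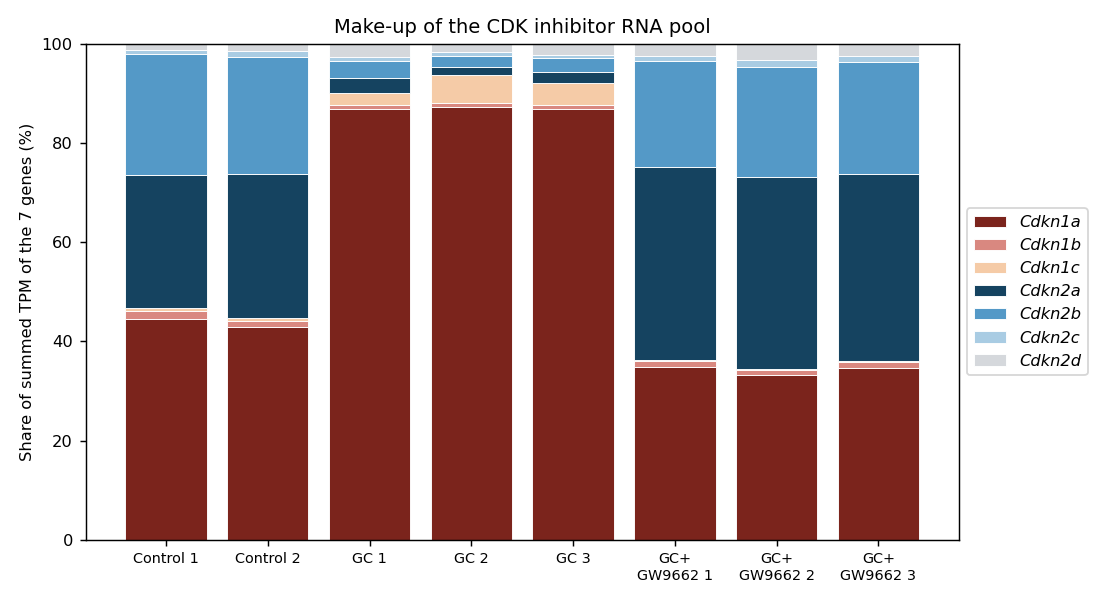
Share of the summed TPM of the 7 CDK inhibitor genes (percent, bars to 100) held by each gene in each of the 8 libraries. Cdkn1a fills 86.8 to 87.2% of the GC bars, while Cdkn2a and Cdkn2b together with Cdkn1a share the Control and GC+GW9662 bars.

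GC was compared with Control, as labelled, with limma on log2(TPM + 1) over all 14985 genes. Cdkn1a, Cdkn1c and Cdkn2d rose, Cdkn2a and Cdkn2b fell, and Cdkn1b and Cdkn2c did not pass the threshold of 0.05 on the adjusted p. The count of 5 of 7 called is read against 55.3% of all genes called in this comparison (16.2% higher and 39.1% lower), and is near that background. The median log2 difference was -0.38 over all tested genes and -0.23 over the 7. Scaling moved the whole: as deposited 2428 genes were called higher and 5863 lower, and with libraries rescaled by the median ratio of their genes 4070 were called higher and 4029 lower, around a median of 0.04.

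Cdkn2a showed a log2 difference of -3.47 ± 0.19 (SE, adjusted p = 3.62e-06), or 11.1-fold lower by mean TPM. Cdkn2b was at -2.91 ± 0.12 (adjusted p = 1.08e-06), 7.64-fold lower. Cdkn1c was 8.06-fold higher at 2.77 ± 0.39 (adjusted p = 0.000497), and without GC replicate 1 the log2 difference was 3.18 (adjusted p = 5.59e-06). Cdkn1a was 2.21-fold higher at 1.14 ± 0.11 (adjusted p = 7.56e-05). These 4 calls kept their direction and side of the threshold in all 23 alternative settings.

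Cdkn2d was 1.78-fold higher, with a log2 difference of 0.80 ± 0.18 (adjusted p = 0.00627), and lost the call in 1 setting, without Control replicate 1 (0.63, adjusted p = 0.0705). For Cdkn1b the log2 difference was -0.43 with a 95% interval of -0.87 to 0.01 (adjusted p = 0.0869). For Cdkn2c it was -0.23 with an interval of -0.63 to 0.16 (adjusted p = 0.286). In all 7 genes the GC libraries did not overlap Control, 3 lying higher and 4 lower, where 71.9% of all tested genes did not overlap (22.2% higher and 49.7% lower). Both signs of Cdkn1b and Cdkn2c turned under other scalings (0.09 and 0.28 with median-ratio scaling).

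GC+GW9662 was then compared with GC, as labelled. Cdkn2a, Cdkn2b and Cdkn2c rose, Cdkn1a and Cdkn1c fell, and Cdkn1b and Cdkn2d did not pass. The count was again 5 of 7, beside 61.7% of all tested genes called (28.3% higher and 33.5% lower). The groups did not overlap for the 5 called genes, which was also so for 64.1% of all tested genes (30.3% higher and 33.8% lower). The median log2 difference was 0.21 for the 7 genes and -0.11 for all tested genes. The comparison shares its GC libraries with the one above, so the opposite signs of the pair are not separate evidence.

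Cdkn1c was 22.5-fold lower by mean TPM, with a log2 difference of -4.03 ± 0.35 (SE, adjusted p = 3.68e-05), and -4.44 without GC replicate 1. Cdkn2a was 16.1-fold higher at 4.003 ± 0.17 (adjusted p = 1.05e-06). Cdkn2b was 7.34-fold higher at 2.86 ± 0.11 (adjusted p = 6.82e-07). Cdkn1a fell by 1.42 on the log2 scale (SE 0.10, adjusted p = 1.34e-05). Cdkn2c was 1.62-fold higher at 0.64 ± 0.15 (adjusted p = 0.00737), and all 5 calls held in the 23 alternatives, with an adjusted p of at most 0.0338 for Cdkn2c when 1 library was left out. Cdkn1b differed by 0.15 (95% interval -0.24 to 0.54, adjusted p = 0.461) and passed in 2 alternatives, while Cdkn2d differed by 0.21 (-0.17 to 0.59, adjusted p = 0.293), with groups that overlapped for both.

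The last comparison was GC+GW9662 against Control, again as labelled. Cdkn2d and Cdkn2a rose, Cdkn1c fell and 4 genes did not pass, so 3 of 7 were called beside 62.7% of all tested genes (14.1% higher and 48.6% lower). The median of all tested genes was -0.49 here, against -0.06 for the 7 genes. Median-ratio scaling moved it to 0.01 and the calls over all genes from 2114 higher and 7284 lower to 4387 and 4744.

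Cdkn2d was 2.06-fold higher, at 1.01 ± 0.18 (SE, adjusted p = 0.00304), the one call of this comparison that held in all 23 alternatives. Cdkn2a was 1.45-fold higher at 0.53 ± 0.19 (adjusted p = 0.0392), and lost the call in 11 alternatives, among them the removal of the length trend (0.15, adjusted p = 0.464). Cdkn1c was 2.80-fold lower at -1.26 ± 0.39 (adjusted p = 0.0211), and lost it in 7, among them leaving out either Control library (adjusted p = 0.1 and 0.0741). Cdkn1a was at -0.29 (95% interval -0.55 to -0.03, adjusted p = 0.0542) and Cdkn2c at 0.41 (0.02 to 0.81, adjusted p = 0.0652), each with groups that did not overlap, as for 79% of all tested genes (21.6% higher and 57.3% lower). Cdkn1b (-0.28, adjusted p = 0.226) and Cdkn2b (-0.06, interval -0.34 to 0.23, adjusted p = 0.696) had overlapping groups. The signs of Cdkn1a, Cdkn1b and Cdkn2b turned under median-ratio scaling, to 0.41, 0.38 and 0.63.

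**Figure D3:**
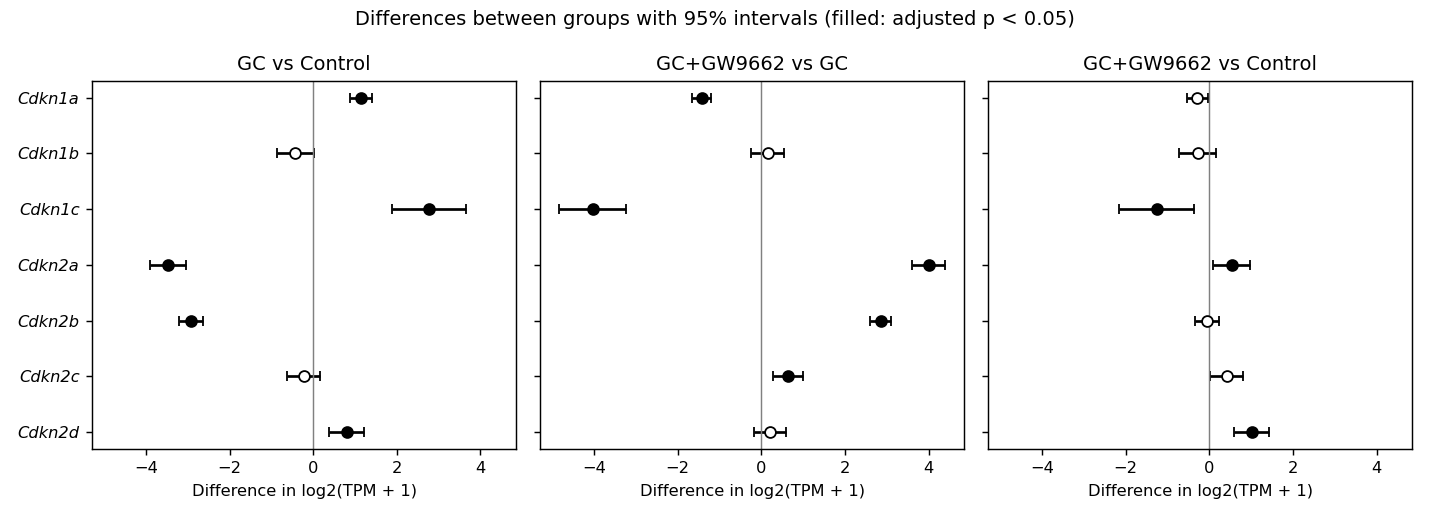
Difference in log2(TPM + 1) between groups for each CDK inhibitor gene in the 3 comparisons, with 95% intervals from limma and filled points where the adjusted p is under 0.05. Cdkn2a lies at -3.47 and 4.003 in the comparisons that involve GC and at 0.53 in the third, while Cdkn2d lies at 0.80 and 1.01 against Control and at 0.21 against GC; the signs of the open Cdkn1a, Cdkn1b and Cdkn2b points in the third panel and of Cdkn1b and Cdkn2c in the first turned under other scalings.

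Counts for the gene lists below stand beside the shares of all tested genes called as deposited. These were 16.2% higher and 39.1% lower in GC against Control. For GC+GW9662 they were 28.3% higher and 33.5% lower against GC, and 14.1% higher and 48.6% lower against Control. The kinases and cyclins that the inhibitors bind formed a list of 12 genes. Of these 12, 8 fell in GC against Control, 1 rose and 3 did not pass, with a median log2 difference of -1.53, and 8 fell under each of 5 other scalings. Ccnd1, the D-type cyclin that activates CDK4 and CDK6, went from 318 to 19.6 TPM (-3.98, adjusted p = 2.86e-06). The other D-type cyclins fell too, Ccnd2 from 197 to 27.9 TPM and Ccnd3 from 68.7 to 20.9 TPM, as did the mitotic cyclin Ccnb2, from 9.01 to 0.505 TPM. The 1 gene that rose was Ccne1, a partner of CDK2, from 9.91 to 34.01 TPM (1.65, adjusted p = 0.000543).

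In GC+GW9662, 8 of the 12 rose against GC, 2 fell and 2 did not pass, with a median of 0.90. Ccnd1 rose from 19.6 to 117 TPM (2.54, adjusted p = 1.56e-05) and Ccnd3 from 20.9 to 60.8 TPM, while Ccne1 fell from 34.01 to 8.36 TPM (-1.88, adjusted p = 0.000152). Against Control, 6 fell, 1 rose and 5 did not pass, and under the other scalings 2 to 5 fell and 1 to 4 rose. Ccnd1 stayed below Control there under all 5 other scalings, by 1.44 on the log2 scale as deposited, while Cdk6, at -1.41, changed sign in 1 of them.

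**Figure D4:**
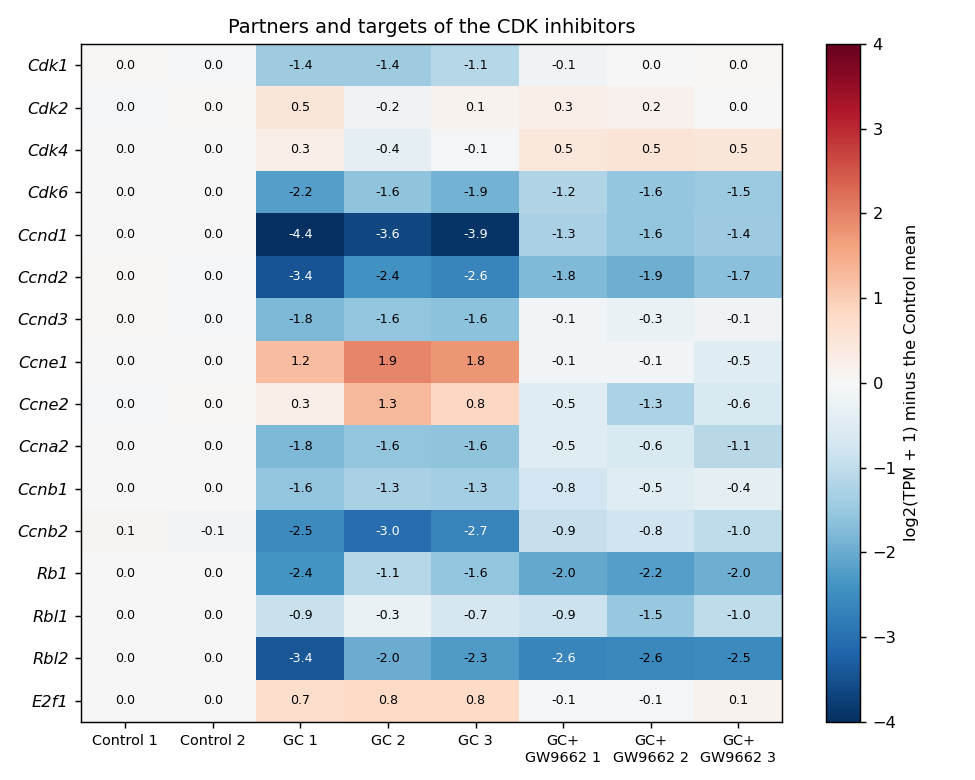
Level of 12 kinase and cyclin partners and of Rb1, Rbl1, Rbl2 and E2f1 in each library, as log2(TPM + 1) minus the Control mean (colour and number). Values run from -4.38 for Ccnd1 to 1.94 for Ccne1, both in GC libraries. Small differences depend on scaling, and the GC+GW9662 means of Cdk6 and Ccnb2 changed sign under 1 other scaling each.

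The pocket proteins, which the kinases phosphorylate, and their E2F partners formed a list of 13 genes of which 10 were tested. Between GC and Control 6 fell, 2 rose and 2 did not pass, and under the other scalings 2 to 4 fell. The pocket protein genes Rbl2 (31.5 to 5.00 TPM, -2.56, adjusted p = 0.00071) and Rb1 (30.3 to 9.19 TPM, -1.71, adjusted p = 0.00266) fell under all 5 of these. E2f1 rose from 30.0 to 51.8 TPM (0.77, adjusted p = 0.000999) and fell back in GC+GW9662 to 29.8 TPM (-0.78 against GC, adjusted p = 0.000513), the 1 gene of the list called in that comparison. In GC+GW9662 against Control, 8 of the 10 fell, and 3 to 7 under the other scalings, in 4 of which 2 rose. Rbl2 fell by 2.59 and Rb1 by 2.07 on the log2 scale, and both passed under all 5 scalings.

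Genes of S phase and mitosis (25 listed, 24 tested) did not move as one. Of the 24, 13 fell in GC against Control, 3 rose and 8 did not pass, with a median of -0.87, and 6 to 12 fell under the other scalings. The ribonucleotide reductase genes Rrm2 (190.3 to 28.9 TPM) and Rrm1 (68.9 to 7.30 TPM) fell and the mitotic ubiquitin-conjugating enzyme gene Ube2c fell from 5.42 to 0.702 TPM. Pcna, the sliding clamp of replication that p21 also binds, rose from 132 to 423 TPM (1.67, adjusted p = 7.77e-06). In GC+GW9662, 8 rose, 6 fell and 10 did not pass against GC, with Rrm2 at 103 TPM, Ube2c at 6.43 TPM and Pcna at 186 TPM. In GC+GW9662 against Control 16 fell and 1 rose as deposited, but 4 to 8 fell and 6 to 7 rose under 4 of the 5 other scalings.

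The p53 pathway list held 20 genes, all tested. In GC against Control 4 rose, 5 fell and 11 did not pass, with a median of -0.24 that was above 0 under 4 of the 5 other scalings. Under these scalings 6 to 10 rose and 3 to 5 fell. Gadd45a, a stress gene whose protein binds p21, rose 28.4-fold from 42.4 to 1203 TPM (4.80, adjusted p = 3.92e-07) and the antiproliferative gene Btg2 rose 4.30-fold, whereas the death receptor gene Fas fell 16.9-fold to 3.32 TPM and Phlda3 fell 2.54-fold. All 4 turned back in GC+GW9662 against GC, where Gadd45a fell to 38.9 TPM and Fas rose to 35.3 TPM; there 6 of 20 rose and 10 fell. Trp53, encoding p53, averaged 44.1 TPM in Control and 38.4 TPM in GC (-0.20, adjusted p = 0.261), and Mdm2, whose protein Arf binds, 160 and 231 TPM (0.47, adjusted p = 0.281). Both fell in GC+GW9662 against GC, to 23.1 TPM (-0.70, adjusted p = 0.00194) and 61.2 TPM (-1.89, adjusted p = 0.00112). Mdm2, and Trp53 in the comparisons with GC, were singled out after their values were seen. Against Control, 13 of the list fell and 2 rose, and 3 to 13 fell and 2 to 8 rose under the other scalings. Bax, a death effector, rose there from 249 to 471 TPM.

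Transcription factors known to act on Cip/Kip genes formed a list of 21. In GC against Control 3 rose, 10 fell and 8 did not pass, and under the other scalings 6 to 7 rose and 6 to 8 fell. The stress factors Atf4 (323 to 2042 TPM) and Atf3 (65.6 to 291 TPM) rose, and Klf6 (233 to 85.6 TPM) and Myc (43.1 to 9.53 TPM) fell. In GC+GW9662, 11 fell and 3 rose against GC, with Atf4 back at 322 TPM and Pparg, the gene of the receptor that GW9662 inhibits, up from 2.94 to 17.6 TPM (2.25, adjusted p = 3.4e-05). Against Control 16 of the 21 fell, among them Myc at 9.56 TPM and the FOXO factor gene Foxo3 at 7.61 TPM. Under the other scalings 7 to 15 fell and 1 to 5 rose.

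Known regulators of the Ink4-Arf locus formed a list of 26, Polycomb subunits among them. In GC against Control 4 rose, 8 fell and 14 did not pass, beside 16.2% higher and 39.1% lower over all tested genes. The median of the list was -0.38, the same as over all tested genes, and was above 0 under 3 of the 5 other scalings. Under these scalings 4 to 7 rose and 4 to 6 fell. The inhibitory helix-loop-helix genes Id3 (749 to 140 TPM, -2.43) and Id1 (194 to 48.4 TPM, -2.02) fell and Ets2 rose from 43.2 to 162 TPM (1.85). In human cells Ets factors are known to activate, and ID1 to oppose, the p16 promoter. In GC+GW9662 against GC, 5 rose and 11 fell: Id3 rose to 1203 TPM, Id1 to 303 TPM, and Ets2 fell to 16.9 TPM, each in the direction opposite to that between GC and Control, with shared GC libraries. Against Control, 16 of the 26 fell and 2 rose as deposited, and 3 to 16 fell and 2 to 8 rose under the other scalings.

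The genes around the members were mixed. Of 5 listed neighbours of the Ink4-Arf locus 2 were tested, and both fell in GC against Control, Mtap from 71.3 to 27.9 TPM (-1.35, adjusted p = 0.00294) and Klhl9 from 112 to 45.6 TPM (-1.29, adjusted p = 0.00292), by less than Cdkn2a and Cdkn2b on the log2 scale. Neither passed in GC+GW9662 against GC as deposited, and 1 of them was higher under 3 of the 5 other scalings. Of 11 listed genes of the imprinted cluster of Cdkn1c, 5 were tested: in GC against Control 3 fell and Tssc4 rose (0.54, adjusted p = 0.00985). The maternally expressed RNA H19 fell there from 10.2 to 2.47 TPM, where Cdkn1c rose. In GC+GW9662 against GC 3 of the 5 rose and 1 fell.

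Genes for the turnover of the inhibitors, such as subunits of the ubiquitin ligase that marks p27, formed a list of 14. In GC against Control 3 rose, 4 fell and 7 did not pass. Cks1b, the cofactor that lets the Skp2 ligase bind p27, fell from 72.5 to 30.9 TPM (-1.23, adjusted p = 0.00146) and passed in 4 of the 5 other scalings. It rose to 139 TPM in GC+GW9662 (2.15 against GC, adjusted p = 4.1e-05), a comparison in which 3 of the list rose and 10 fell. The cullin gene Cul1 fell there from 69.8 to 10.3 TPM. Against Control, 7 of the 14 fell and 2 rose, and 5 to 7 fell and 2 to 6 rose under the other scalings.

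Markers of other cell types moved with these results. Against Control, GC libraries had 10 of 12 macrophage markers, 8 of 9 tested adipocyte markers and 8 of 10 marrow stromal markers lower, and 1 macrophage marker, Cd68, higher (979 to 2651 TPM). Beside GC, the GC+GW9662 libraries had 9 macrophage, 8 adipocyte and 6 stromal markers higher, and 1 of each list lower. The stromal sum was 5975 to 6244 TPM in Control, 101 to 138 TPM in GC and 3405 to 3522 TPM in GC+GW9662, and the osteoblast sum 6476 to 6753, 2517 to 2634 and 4766 to 6165 TPM. Single genes held most of both sums in Control and GC+GW9662, with Acta2 averaging 4767, 42.1 and 3127 TPM and Spp1 6432, 2572 and 5501 TPM. Cdkn2a and Cdkn2b were lowest in GC, as these sums were. In GC+GW9662 both sums lay below Control, while Cdkn2a averaged 644 TPM against 445 TPM in Control and Cdkn2b overlapped Control. As deposited, GC+GW9662 against Control had 8 of 12 macrophage and 9 of 10 stromal markers lower and 0 of either higher. Of 9 tested adipocyte markers, 4 were lower there and 3 higher. The sum of the 6 neutrophil markers was 21 to 26.7, 249 to 550.1 and 72.2 to 83.3 TPM and was nearly all S100a8, at 22.8, 381 and 77.3 TPM. Only 2 of the 6 were tested, and Camp did not pass while S100a8 was higher in GC than in Control (3.94, adjusted p = 1.71e-05). Sums of osteoclast markers lay between 55.6 and 89.0 TPM, and those of lymphocyte, erythroid and endothelial markers at or under 21 TPM in every library. The part of cell make-up in the inhibitor results was not tested, and in these bulk libraries fewer cells of a type and less RNA per cell cannot be told apart.

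Transcript length also moved with the groups. The median log2 difference of tested genes went from 0.18 in the shortest of 10 length bins to -1.03 in the longest in GC against Control, from 0.41 to -0.53 in GC+GW9662 against GC, and from 0.59 to -1.67 in GC+GW9662 against Control. Cdkn2a, at 895 bases, lay in a bin with medians of 0.08, 0.41 and 0.50 in these comparisons. Its own differences were -3.47, 4 and 0.53, so the first pair was far from its bin and the last was near it. Cdkn1b, the longest at 4552 bases, lay in a bin with medians of -0.72, -0.42 and -1.23. With the length trend removed, Cdkn1b was 0.60 higher in GC+GW9662 than in GC (adjusted p = 0.0114) and 0.94 higher than in Control (adjusted p = 0.00588).

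Some genes tracked a member closely across the 8 libraries. The libraries fall into 3 groups, and all genes of a library share its depth and scaling, so that Pearson correlations can run high. Only the highest among the 8781 genes compared are given, and the spread of the rest was not summarised. The profile closest to that of Cdkn1a was Tollip (r = 0.9990), an adaptor of Toll-like receptor signalling, followed by Atf1 and Cpeb1 (r = 0.9986 and 0.9985). For Cdkn1c it was Ppp1r15a (r = 0.9993), a phosphatase subunit of the integrated stress response, then Pvr and Rnf185. Ppp1r15a measured 21.9 and 23.1 TPM in Control, 120, 342 and 254 TPM in GC and 6.81 to 10.1 TPM in GC+GW9662, with GC replicate 1 the lowest of its group as for Cdkn1c.

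For Cdkn2a the closest profiles were those of Ppt2, Psmb10 and Ctnnbip1 (r = 0.9995, 0.9995 and 0.9993). Psmb10, an immunoproteasome subunit gene, measured 57.4 and 59.7 TPM in Control, 4.28 to 7.33 TPM in GC and 82.6 to 85.7 TPM in GC+GW9662. Cdkn2b was tracked by Milr1, Paqr7 and Fcgr3 (r = 0.9997, 0.9996 and 0.9996), the last an Fc receptor gene of myeloid cells at 1160 to 1185 TPM in Control, 140 to 164 TPM in GC and 995 to 1197 TPM in GC+GW9662. The low, flatter genes had looser companions, Becn1 for Cdkn1b (r = 0.963) and Ndufb2 for Cdkn2c (r = 0.970), and Pfn2 for Cdkn2d (r = 0.992).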

How the data were processed

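The authors deposited 1 table of TPM values for 54232 rows and 8 libraries. Per the submitters' processing notes they used featureCounts, HISAT2 2.1.0 and fastp; the build and annotation are not given in the sources used here. Start and end of 97.4% of rows equal GENCODE M21 (GRCm38), and coordinates are given in that build, or from RefSeq on GRCm38 for 2 of the 7 members. Repeated symbols (96, all with the same values) were kept once and 27 symbols turned into dates were restored. TPM is scaled per library, so a gene's value also depends on the rest of its library.

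From these values, groups were compared with limma 3.58.1 (R 4.3.3) on log2(TPM + 1), with a prior variance that follows mean expression, over all 8 libraries, two-sided, with Benjamini-Hochberg adjustment over the 14985 genes that reached 1 TPM in 2 or more libraries. A fold is a ratio of mean TPM, and a log2 difference understates the change of low genes. Whole reads and depth were estimated from TPM times length: with the length of the longest M21 transcript, 25918 of 26812 genes above 0 came out whole within 0.02 reads, and limma's voom on the reads called 8162, 9299 and 9074 genes in the 3 comparisons. The labels give no pairing, and replicate numbers showed none in a check that so few libraries cannot settle, so no block was used. The genes named are the 7 members, up to 4 genes per list and comparison that passed, by smallest adjusted p, and the 3 profiles most like each member at a mean of at least 5 TPM. The members and lists were chosen with earlier results of these data known. Alternatives (21 planned and 2 added after seeing the data, voom on reads and removal of the length trend) are given under the closing section.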

Additional observations from a re-analysis of the deposited data

How the results depend on the processing

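In 23 alternatives, the calls of Cdkn1a, Cdkn1c, Cdkn2a and Cdkn2b in GC against Control and in GC+GW9662 against GC, of Cdkn2c in GC+GW9662 against GC and of Cdkn2d in GC+GW9662 against Control kept their direction and side of the threshold. The cause of the changes below was not tested. In GC against Control, Cdkn1b turned to 0.0892 under median-ratio scaling, 0.19 under quantile normalization and 0.34 with the length trend removed. Cdkn2c turned to 0.28, 0.44 and 0.17 in these and to 0.0086 with voom on reads. Library weights brought both past the threshold at -0.45 and -0.24, in a setting that called 11757 genes over all. The weights were 7.165 for GC replicate 3 and 0.108 and 0.479 for GC replicates 1 and 2, so the GC level there rested mostly on 1 library. In GC+GW9662 against GC, Cdkn1b passed with voom (0.41) and with the length trend removed (0.60), where Cdkn2d turned to -0.0673.

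In GC+GW9662 against Control, 5 of the 7 genes were called under median-ratio scaling (all higher), library weights and a fit of the compared groups alone. Over all genes these settings called 9131 (4387 higher), 11154 and 10137, beside 9398 of 14985 (62.7%) in the main fit. Shares are not given for these settings, and the fit of the compared groups alone has its own filter on low values. The counts of 5 are therefore not read as a result about the 7 genes. Median-ratio scaling gave 0.41 for Cdkn1a, 0.38 for Cdkn1b, -0.68 for Cdkn1c, 0.63 for Cdkn2b and 1.06 for Cdkn2c. Quantile normalization gave -0.51 for Cdkn1a, 0.58 for Cdkn1b, -0.38 for Cdkn1c, 0.32 for Cdkn2a and 1.30 for Cdkn2c. Voom on reads gave 0.23 for Cdkn1a, 0.22 for Cdkn1b, -0.99 for Cdkn1c, 0.45 for Cdkn2b and 0.95 for Cdkn2c. Removing the length trend gave 0.94 for Cdkn1b, 0.15 for Cdkn2a and 0.84 for Cdkn2c. Cdkn1a passed with library weights (-0.25), in the compared groups alone (-0.29) and with a filter of 5 TPM (-0.29). Cdkn2c passed with library weights (0.41), in the compared groups alone (0.41) and with mitochondrial and the top 20 genes left out (0.48), where Cdkn2b was at 0.0022. Cdkn1c lost the call with a pseudocount of 5 (-0.78), and Cdkn2a lost it with no filter and with a constant prior (0.53 in both).

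Without 1 library in turn, the genes called ranged from 5513 to 9233 in GC against Control and from 5598 to 10329 in GC+GW9662 against Control, both lowest without Control replicate 1. Of the 7 genes, 1 to 5 were called in GC+GW9662 against Control. Only 1 was called without GC+GW9662 replicate 2, and 5 without GC replicate 1. Leaving out a Control library leaves only 1 in that group, so those fits are not read here. The genes called over all also differed between fits, each with its own filter on low values. Their share was 62.7% in the fit of all 8 libraries and is not given for the others. These counts are therefore not read as a result about the 7 genes. Ranges there were -0.33 to -0.21 for Cdkn1a, -1.39 to -1.12 for Cdkn1c, 0.48 to 0.58 for Cdkn2a and 0.33 to 0.54 for Cdkn2c. Cdkn2d in GC against Control ranged from 0.63 to 0.98.

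Libraries with the same replicate number did not deviate together (correlations of -0.16 to 0.08 between groups, over title numbers), so the numbers were not taken as pairs. With 2 or 3 libraries per group this check cannot exclude pairing, since deviations from so small a group mean depend on each other. With a replicate block by title number, 7145, 8351 and 8368 genes were called in the 3 comparisons in the order of the text, and Cdkn2a in GC+GW9662 against Control was at 0.51 (adjusted p = 0.0733). A replicate block by bracket number turned Cdkn2b there to 0.0055 (adjusted p = 0.974). Cdkn1c in GC+GW9662, at 51 to 85 reads, is the value that depth limits most, and counting error is the only error those reads describe.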

Other observations

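Other genes with CDK inhibitor in their names, which belong to neither family and were picked after their values were seen, did not share 1 profile. Cdkn2aip, encoding a protein that binds Arf, averaged 8.66 TPM in Control, 19.6 TPM in GC and 3.11 TPM in GC+GW9662, higher in GC than in Control (log2 difference 1.06, adjusted p = 0.00795) and lower in GC+GW9662 than in GC (-2.29, adjusted p = 8.21e-05). Its relative Cdkn2aipnl averaged 68.2, 37.1 and 103 TPM, lower in GC than in Control (-0.88, adjusted p = 0.00186, passed in 3 of 5 other scalings) and higher in GC+GW9662 than in GC (1.47, adjusted p = 6.73e-05). Cdkn3, a phosphatase that acts on CDKs, averaged 1.98, 0.491 and 4.70 TPM, lowest in GC (-0.999 against Control, adjusted p = 0.00174) and highest in GC+GW9662 (0.94 against Control, adjusted p = 0.00334).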
